A study of Drosophila melanogaster with 2 samples.

Results

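The proneural and neural bHLH genes of Drosophila melanogaster encode the basic helix-loop-helix proteins that select and shape neural precursors, together with their shared partner and their antagonists. The set held 10 genes, chosen by name from 13945 protein-coding genes on the 6 chromosome arms: ac, sc, l(1)sc, ase, ato, amos, cato, da, emc and dpn. Crol (crooked legs), a zinc finger protein, was mapped over them by ChIP-seq, in which protein-bound chromatin fragments are immunoprecipitated and sequenced. Whole embryos of strain crol-GFP, collected over 0 to 24 h, carried an insertion that fuses Crol to eGFP, and the fusion was precipitated through GFP, although another label field names crol as the antibody. There was 1 group of 2 biological replicates, with no other genotype, treatment or age, so no contrast between conditions exists and no test was run. A control experiment named in the labels was not analysed here, sex was not recorded, and the depth of the libraries is unknown. Whole embryos of this age range mix all cell types and stages, so peaks carried by few cells and weak peaks in many cells cannot be told apart.

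A peak was given to a gene when its summit lay from 10 kb upstream of the TSS (transcription start site) to 5 kb past the gene end. Each of the 10 genes has 1 annotated TSS. Peaks were taken from the conservative list, which holds 9211 peaks that the replicates ranked alike by IDR (irreproducible discovery rate). Signal is the value deposited for each peak, on a scale that is not stated. The signal of a peak in a single replicate is called its height here. Signals over both replicates are compared only within the same list. Heights of the replicates come from separate lists whose relative scaling is not stated, so their ratios are descriptive only. The score is the authors' rescaled IDR, which reached at least 830 for every conservative peak and at most 1000. The windows of the 10 genes held 13 conservative peaks, and these belonged to 5 genes.

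In the embryo and in imaginal discs, proneural proteins such as Achaete, Scute and Atonal pair with the broadly expressed bHLH protein Daughterless and bind E-box sequences, of the form CANNTG, to start neural fate in clusters of cells. Extramacrochaetae lacks the basic DNA-binding region and keeps proneural proteins and Daughterless from DNA by forming inactive pairs with them. Notch signalling, acting through bHLH repressors, restricts neural fate to single cells of a cluster. Crol is encoded by an ecdysone-inducible gene and is known for roles in leg development and in cell cycle control of the wing.

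The bases at 6 of the summits are printed here. They cover the promoter summits at ato and emc, E-boxes under some of the emc peaks, and the one amos peak, which lies at another gene's start. The cato and dpn summits are not printed. Nor are the emc summits farther past the gene end, of which the one 2800 bp past it also held an E-box. Each run is 101 bases centred on the summit, from RefSeq's Release 6 (dm6) genome, plus strand, 5′ to 3′. Capitals mark E-boxes (CANNTG) and runs of at least 5 G or C. The runs are chr3R:8277942-8278042 for ato, chr2L:18605091-18605191 for amos, chr3L:751726-751826 for the emc intron, chr3L:742675-742775 for the emc upstream peak, chr3L:749389-749489 for the emc start and chr3L:753918-754018 for the peak past the emc end.
ato, 60 bp upstream of the TSS: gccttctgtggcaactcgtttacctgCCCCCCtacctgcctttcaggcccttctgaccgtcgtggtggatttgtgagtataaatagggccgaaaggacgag
amos, 8220 bp upstream of the TSS: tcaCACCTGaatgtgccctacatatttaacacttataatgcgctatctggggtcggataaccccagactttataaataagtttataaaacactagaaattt
emc, intron: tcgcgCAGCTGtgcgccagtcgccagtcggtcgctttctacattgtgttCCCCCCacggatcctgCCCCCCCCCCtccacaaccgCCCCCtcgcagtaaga
emc, 6675 bp upstream of the TSS: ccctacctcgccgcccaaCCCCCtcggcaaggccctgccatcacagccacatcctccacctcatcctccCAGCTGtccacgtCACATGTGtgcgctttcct
emc, 39 bp downstream of the TSS: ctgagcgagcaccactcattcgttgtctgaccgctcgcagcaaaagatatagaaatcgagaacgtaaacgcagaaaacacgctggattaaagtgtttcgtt
emc, 476 bp past the gene end: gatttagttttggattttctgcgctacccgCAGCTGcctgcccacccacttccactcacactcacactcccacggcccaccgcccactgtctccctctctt
The ato run held a block of 6 C and no E-box. The emc intron run held a block of 10 C, 3 blocks of C or G in all, and the E-box CAGCTG. The upstream emc run held 3 E-boxes, of which CAGCTG stood alone and CACATG overlapped the third, read as CATGTG. The run past the emc end held CAGCTG. The amos run held CACCTG, which reads CAGGTG on the other strand, and no run of 5 G or C. The run at the emc start held neither.

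A conservative peak lay in the window of 5 of the 10 genes, against 58.2% of all protein-coding genes and 53.2% of those no longer than da, the longest of the 10. The genes with a peak were ato, amos, cato, emc and dpn, and those without one were ac, sc, l(1)sc, ase and da. A summit within 500 bp of the TSS was found for 3 of the 10 genes (ato, cato and emc), against 15.5% of protein-coding genes. The median was 0.5 peaks per window among the 10 genes and 1 among all protein-coding genes. In these windows the share of the set with a peak was thus near the background. That share rests on the 4 neighbouring genes of the achaete-scute complex, without which 5 of the remaining 6 genes had a peak. The genes differed among themselves from 0 peaks to 6.

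**Figure D1:**
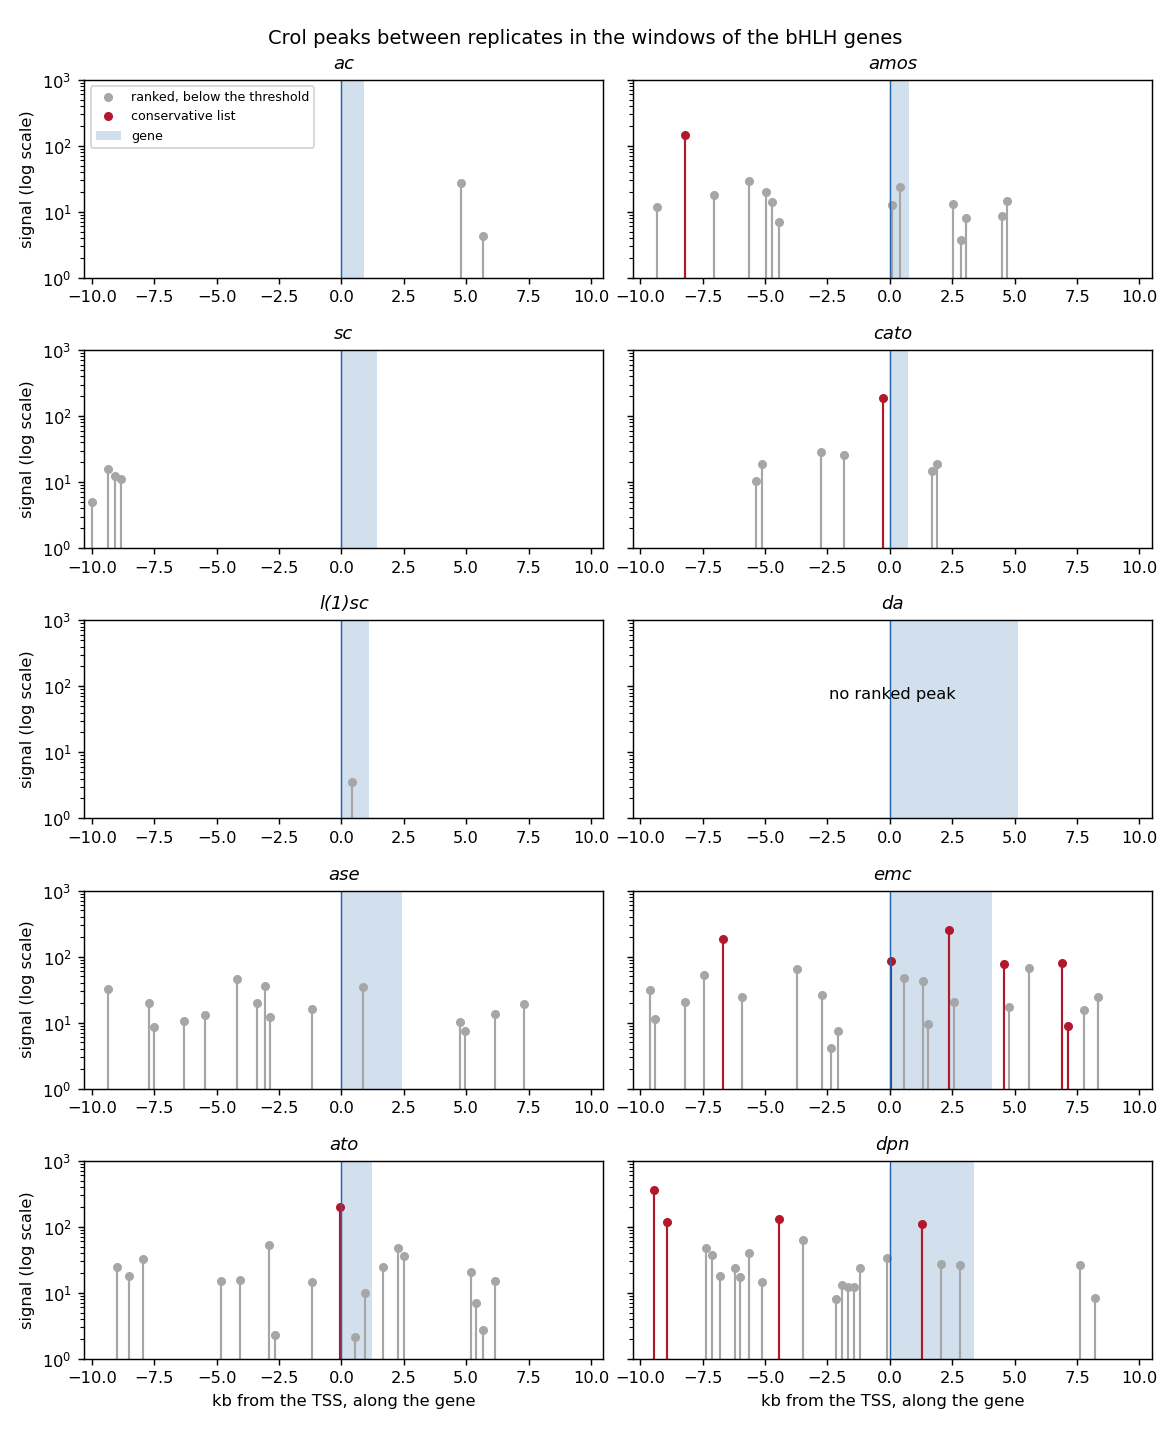
Crol peaks of the ranked list between replicates in the window of each of the 10 genes, with the distance from the TSS in kb along the gene on the horizontal axis and the peak signal on a log vertical axis. Red stems are the 13 conservative peaks, grey stems are ranked peaks below the threshold, and the blue band is the gene; emc held 6 red stems and da held no stem at all.

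The 4 genes of the achaete-scute complex on the X had no conservative peak in their windows. ac and sc give external sense organs and early neuroblasts their fate, l(1)sc acts mainly in neuroblasts of the embryonic nervous system, and ase is a neural precursor gene expressed after the fate choice. They lie at X:370031-370947, X:396060-397497, X:409721-410817 and X:460747-463176, all on the plus strand and all within the span of CG32816 on the other strand. The interval from the start of the ac window to the end of the ase window covered 108 kb (X:360031-468176). It held 0 peaks of the conservative list, 0 of the optimal list, which is the authors' less strict joint list, and 0 of each replicate's own thresholded list. Among single gene windows, 36.3% of those of protein-coding genes held no peak of any of these lists. That share is not one for stretches of 108 kb.

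Peaks below the threshold were present across the complex. The authors' ranked list between replicates, with 87125 peaks before any threshold, had 40 in the interval, 22 of them inside one of the 4 windows and 18 between the windows. That is 3.70 per 10 kb, against 8.07 per 10 kb over the X. Over the first 493 kb of the X, which include the complex, it was 2.17 per 10 kb. Their median signal was 12.9, against 18.9 on the X and 20.5 over all arms.

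Within the complex the ranked peaks were unevenly spread. ase had 15 of them, sc 4, ac 2 and l(1)sc 1. The highest signal lay 4163 bp upstream of the ase TSS (X:456379-456788) at 45.9, with a height of 32.9 in replicate 1 and 12.6 in replicate 2 and a score of 109. The peak 3051 bp upstream of ase had a signal of 36.3, replicate heights of 22.7 and 16.6, and a score of 351. A peak 858 bp downstream of the ase TSS, inside the gene, had a signal of 34.1, replicate heights of 13.6 and 18.8, and a score of 279. The highest score of the interval was 360, also in the ase window (X:451201-451610), with a signal of 31.8 and replicate heights of 20.4 and 16.5. Every one of these scores was under 830, the lowest score of the conservative list.

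The other 3 genes of the complex had weaker ranked peaks. The highest in the ac window lay 4794 bp downstream of its TSS, with a signal of 26.8, heights of 7.06 and 17.9 and a score of 111. The highest in the sc window lay 9330 bp upstream, with a signal of 15.6, heights of 8.35 and 7.42 and a score of 47. The only one in the l(1)sc window lay inside the gene, 424 bp downstream of the TSS, with a signal of 3.51, heights of 16.9 and 11.7 and a score of 147. For the highest ac, sc, l(1)sc and ase peaks, 1 of the 2 heights paired to them in the joint list was not found at the same interval in that replicate's own list. No ranked peak lay within 500 bp of the ac, sc or ase TSS.

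**Figure D2:**
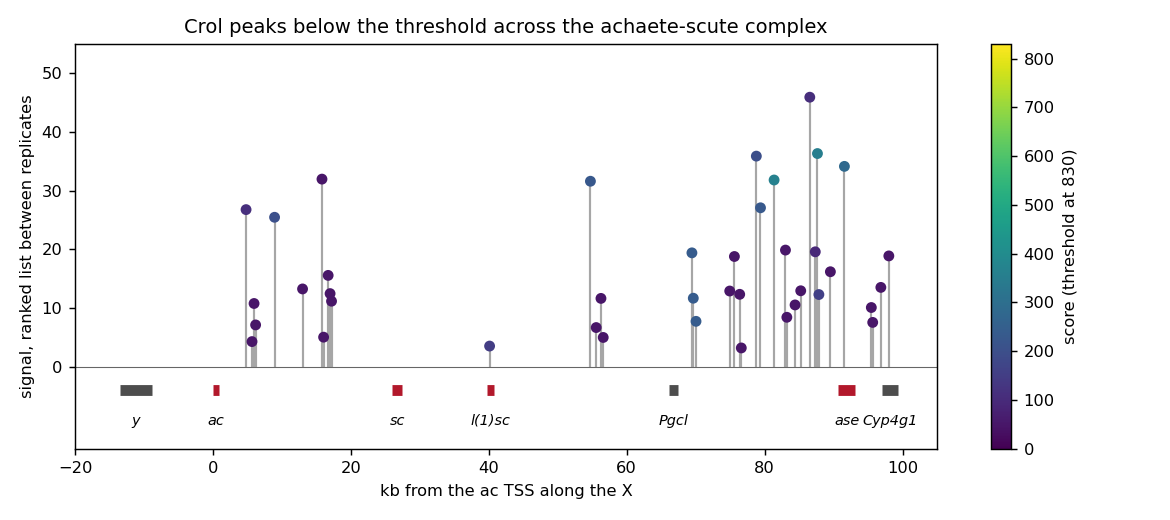
Ranked peaks between replicates over the achaete-scute complex, with the distance from the ac TSS along the X in kb on the horizontal axis and the signal on a linear vertical axis. Points are the 40 peaks coloured by score, on a colour scale that ends at the threshold of 830; bars under the axis are genes, red for the 4 members, and the highest points stand around ase.

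The missing peaks at the complex were part of a longer empty stretch. The first conservative summit of the X lay at position 492904, 32.2 kb past the ase TSS and 119 bp from the TSS of CG17896, with a signal of 229. The 493 kb before it, with 32 protein-coding genes, held no conservative peak. It held 1 peak of the optimal list, 1 of replicate 1's thresholded list and 2 of replicate 2's, all outside the complex. Stretches of at least that length were rare, 8 of 9217 between neighbouring summits or arm ends, against a median of 4.05 kb. Of the 8, 7 reached an arm end, this one included. The rest of the 7 lay at the start of 2R and 3R and at the end of 2L, 3L, 4 and the X. Because only stretches at least as long were counted, this one was the shortest of the 8 by construction. The others ran from 644 kb at the end of 4 to 5680 kb at the start of 2R. Whether the 8 are alike in kind was not tested. The X as a whole had 1943 conservative peaks, or 8.25 per 100 kb. Whether the low peak number at ac, sc, l(1)sc and ase is a property of the genes or of the X tip was not tested.

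ato, the proneural gene of chordotonal organs and of the founder photoreceptor of the eye, had 1 conservative peak, at its promoter. The gene lies at 3R:8278052-8279274 on the plus strand. The peak (3R:8277898-8278044) was 147 bp wide with its summit in intergenic DNA 60 bp upstream of the TSS. Its signal was 202, rank 2125 of 9211, with a height of 133 in replicate 1 and 67.0 in replicate 2, a ratio of 1.98. Replicate 1 was thus the higher, and the peak stood at 22.1% from the top of replicate 1's own list but 52.9% from the top of replicate 2's. On either side lay weaker ranked peaks below the threshold, 53.1 at 2886 bp upstream with a score of 598 and 47.4 at 2269 bp downstream with a score of 607.

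amos, the proneural gene of multiple dendritic neurons and olfactory sensilla, had 1 conservative peak, far from its own start. The gene lies at 2L:18596136-18596921 on the minus strand. The summit was 8220 bp upstream (2L:18604936-18605345), in the 5′ UTR of CG10413 and 108 bp from that gene's TSS. Its signal was 144, rank 3398, with heights of 67.2 in replicate 1 and 78.0 in replicate 2, a ratio of 0.861. Inside amos itself only ranked peaks below the threshold were found. The stronger lay 426 bp downstream of the TSS, with a signal of 23.4, heights of 16.1 and 10.6 and a score of 132, and a weaker one, with a signal of 12.5, lay closer to the TSS.

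cato, an ato relative expressed in developing sense organ precursors and neurons, had 1 conservative peak close to its start. The gene lies at 2R:16277685-16278396 on the minus strand, and the peak (2R:16278628-16278787) was 160 bp wide with its summit 294 bp upstream. Its signal was 189, rank 2332, with heights of 101 in replicate 1 and 92.0 in replicate 2. The replicates were thus close, with a ratio of 1.09. Within 50 bp of the summit the sequence held 6 overlapping or separate matches to GAGAG on either strand, and no E-box. Outside the window, 7573 bp downstream of the TSS, lay a stronger conservative peak, with a signal of 466 and heights of 236 and 223.

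da, which encodes the common bHLH partner of the proneural proteins, had no peak in either joint list. The gene lies at 2L:10388105-10393228 on the plus strand. Its window held no conservative or optimal peak and, unlike all the other 9 genes, no peak of the ranked list between replicates. Such an empty window was found for 9.68% of protein-coding genes. Replicate 1's own ranked list had 10 peaks there, with signals of 21.4 at 2754 bp downstream, 19.9 at 7299 bp upstream and 15.5 at 6 bp upstream of the TSS as the highest. Replicate 2's own ranked list had 0. The median signals of these lists were 12.7 in replicate 1 and 15.9 in replicate 2, and 7813 and 6138 of their peaks passed the authors' threshold. The nearest conservative summit lay 36010 bp downstream of the da TSS, with a signal of 93.0.

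emc, the antagonist of the proneural proteins and of Daughterless, had the most peaks of the 10 genes. Its window held 6 conservative peaks, or 3.14 per 10 kb, a number reached by 5.16% of all protein-coding genes and by 1.79% of those no longer than da. The count includes 2 overlapping peaks that are one measurement. Such pairs were counted the same way for all genes, and no share was computed with them counted once. The gene lies at 3L:749400-753492 on the plus strand, within the span of hng3 (3L:737680-755489), which is on the minus strand. The optimal list gave 9 peaks, replicate 1's thresholded list 5 and replicate 2's 2.

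The strongest emc peak (3L:751689-751883) lay in an intron, 2376 bp downstream of the TSS, with a signal of 252, rank 1554. Its heights were 132 in replicate 1 and 121 in replicate 2, close to each other. The next (3L:742520-742929) lay 6675 bp upstream, in an intron of hng3, with a signal of 185 and heights of 107 and 84.3. Its nearest TSS of any kind was that of the tRNA gene tRNA:iMet-CAT-1-3, 1069 bp away. Both were in the thresholded list of each replicate.

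The other 4 emc peaks were weaker. All but the one 476 bp past the gene end, with a ratio of 1.28, were also less even between replicates. The promoter peak (3L:749234-749643), in the 5′ UTR and 39 bp downstream of the TSS, had a signal of 85.1, rank 6334, and a score of 859. Its heights were 59.8 in replicate 1 and 27.7 in replicate 2, a ratio of 2.16, the highest of the 13 peaks, and no thresholded peak of replicate 2 overlapped it. A peak 476 bp past the gene end (3L:753763-754172) had a signal of 77.0 and heights of 47.2 and 36.8, and it overlapped no thresholded peak of either replicate alone. A peak 2800 bp past the end (3L:756087-756496), 803 bp from an hng3 TSS, had a signal of 78.9, a score of 927 and heights of 56.2 and 29.0. The last (3L:756340-756749) overlapped that interval, had a signal of 8.86 and carried the same replicate heights, so the pair is one measurement listed with 2 summits. With overlapping intervals counted once, the 13 peaks became 12.

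dpn, a Hairy/E(spl)-related repressor that marks neuroblasts and holds them in the stem cell state, had 4 conservative peaks, 2.18 per 10 kb. The gene lies at 2R:8228971-8232330 on the minus strand, and 13.1% of all protein-coding genes and 7.65% of those no longer than da had as many. Its strongest peak (2R:8241601-8241918) was the strongest of the whole set, with a signal of 356, rank 911. The heights were 178 in replicate 1 and 211 in replicate 2. Its summit lay 9439 bp upstream, in the exon of lncRNA:CR44276 and 248 bp from that TSS, and the sequence within 50 bp of it held 5 matches to CACACA.

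The other 3 dpn peaks stood near the median of the list. One 8943 bp upstream (2R:8241174-8241424) had a signal of 117 and heights of 57.5 and 102, a ratio of 0.562, the lowest of the 13 peaks. One 4451 bp upstream (2R:8236576-8236985) had a signal of 130.1 and heights of 84.8 and 53.7. It was 490 bp from a TSS of pnut, which encodes the septin Peanut. The last (2R:8230854-8231263) lay within dpn, 1271 bp downstream of the TSS, with a signal of 111 and heights of 55.3 and 49.7. Its summit was 6 bp from the annotated TSS of sisRNA:4, a stable intronic RNA named within dpn. No conservative summit lay within 500 bp of the dpn TSS, and 1 of the 4 peaks had dpn as its nearest protein-coding TSS.

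The cut-offs placed a few peaks narrowly. Just under the threshold, the ranked peak 3468 bp upstream of dpn had a score of 826, a signal of 63.0 and replicate heights of 29.6 and 29.5. For emc the peaks below the threshold with the highest signals, 67.3 and 65.5, had scores of 733 and 677. Just outside the windows, a peak 10256 bp upstream of dpn had a signal of 91.0, and 14857 and 15751 bp upstream of emc lay peaks with signals of 241 and 90.7. Nothing was added for the 5 genes without a peak when the window was widened to 20 kb upstream and 10 kb past the end. Of all protein-coding genes, 75.1% had a peak in that wider window, against 5 of the 10.

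**Figure D3:**
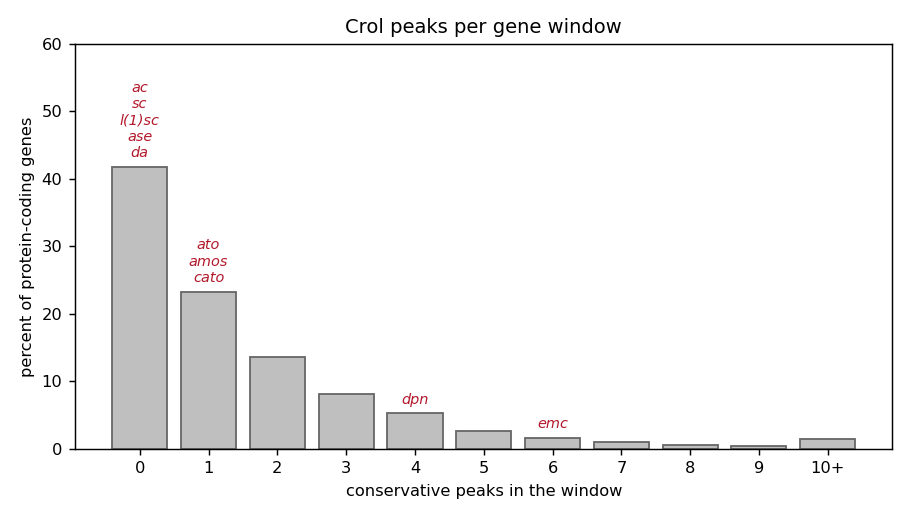
Share of protein-coding genes, in percent on the vertical axis, by the number of conservative peaks in the window on the horizontal axis. The names stand over the bar of their own count; ac, sc, l(1)sc, ase and da are over 0, ato, amos and cato over 1, dpn over 4 and emc over 6.

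Over the 13 peaks the signal ranged from 8.86 to 356 with a median of 130, against 113 over the conservative list, and 8 of the 13 were at or above that median. Replicate 1 was the higher in 10 of 13, as in 74.1% of all conservative peaks. The median ratio of replicate 1 to replicate 2 was 1.27 at the 13 peaks and 1.21 over the list, 0.35 and 0.28 on the log2 scale. Heights differed by at most a factor of 2 in 12 of 13 and in 94.9% of the list. A thresholded peak of both replicates overlapped 9 of the 13, one of replicate 1 alone overlapped 3, and 1 overlapped neither. The matching shares of the list were 57.1%, 17.4% and 18.2%.

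**Figure D4:**
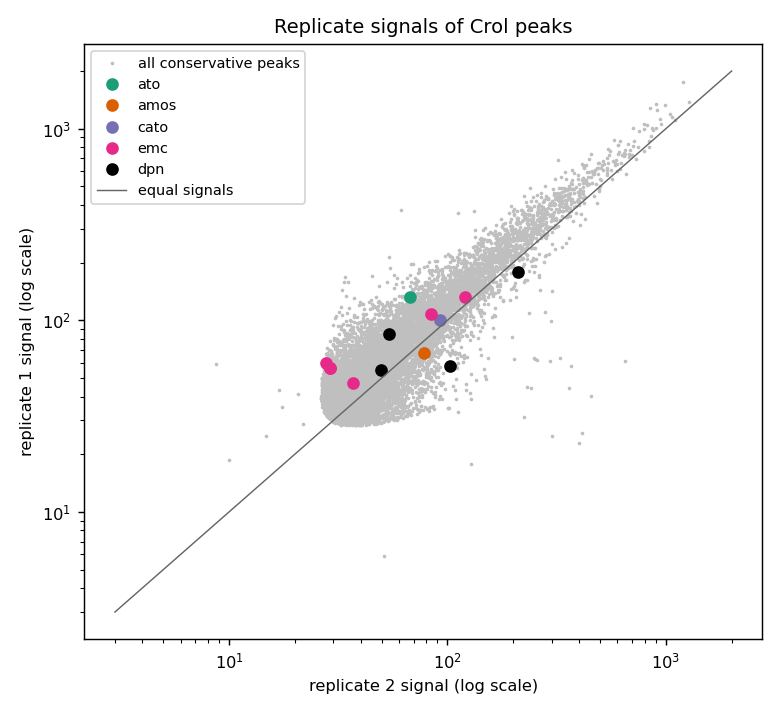
Height of each conservative peak in replicate 2 on the horizontal axis and in replicate 1 on the vertical axis, both log scales, with grey points for the 9211 peaks, coloured points for the peaks of the 5 genes and a line of equal heights. Among the coloured points, the emc promoter peak (59.8 against 27.7) stands farthest above the line and one dpn peak (57.5 against 102) farthest below it.

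In place, 6 of the 13 summits were intergenic, 3 intronic, 2 in a 5′ UTR and 2 in a non-coding exon. For 5 of the 13 the nearest protein-coding TSS was that of the gene whose window held them. The other 8 were nearest to CG10413, hng3 or pnut: the amos peak, 4 of the 6 emc peaks and 3 of the 4 dpn peaks. Narrow peaks were found at ato, cato, the emc intron and 2 of the dpn peaks, and the remaining 8 had a width of 410 bp, as did 71.6% of the list.

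E-boxes were counted within 50 bp of each summit, since they are the sites that proneural proteins with Daughterless bind. Both strands were searched for 7 motifs. They were the E-box CANNTG itself, its form CAGCTG, its form CAGGTG and its form CACGTG, all 3 forms being counted in the first too, and the simple repeats GGGGG, then GAGAG, then CACACA. An E-box of any form was present at 5 of 13 summits (38.5%), against 38.2% of all conservative peaks. CAGCTG was present at 3 of 13 (23.1%) against 5.68%, all 3 in the emc window and so not independent of each other. CAGGTG was present at 2, the amos peak and the emc peak 2800 bp past the end (15.4% against 4.26%), and CACGTG at 0, against 1.35%. A run of 5 G or C lay at 6 of 13 (46.2% against 53.1%), GAGAG at 4 (30.8% against 25.9%) and CACACA at 2 (15.4% against 13.9%). The GC content of these windows had a median of 55.4% against 53.5%. These are matches to letters, and no binding of a bHLH protein was measured.

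Genes around the proneural step were read from 3 lists, beside all protein-coding genes, of which 58.2% had a conservative peak and 15.5% a promoter peak, with a median of 1 peak. Of 11 E(spl) and Hairy type repressors, 11 had a conservative peak and 5 had one within 500 bp of a TSS. Their median was 4 peaks, and some of them are known antagonists of proneural genes. The strongest peaks anywhere in the windows were 1320 for E(spl)m3-HLH, 729 for E(spl)mbeta-HLH, 492 for hry (hairy) and 338 for Sidpn. Within 500 bp of a TSS, the strongest of the same genes were 112, 265, 143 and 134. Neighbouring E(spl) genes share peaks because their windows overlap. Of 28 neural precursor factors and proneural partners, 26 had a peak and 17 a promoter peak, with a median of 4 peaks. The strongest peaks in these windows were 1380 for mirr, 854 for sens-2, 769 for neur and 595 for brat. mirr encodes an Iroquois homeodomain protein, neur the ubiquitin ligase of Notch ligand endocytosis, and brat a brake on neuroblast self-renewal. The mirr peak was a promoter peak, the strongest promoter peak of sens-2 was 79.7, and neur and brat had no promoter peak. No conservative peak was found in the window of sens, whose zinc finger protein works with proneural proteins, or of ind, which patterns the neuroectoderm. Of 17 other tissue-specific bHLH activators, 8 had a peak and 1, the mesoderm gene twi, had a promoter peak, with a median of 0 peaks. In the 10 genes, 5 and 3 had these, with a median of 0.5. The lists differ in gene length and were not tested against each other.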

How the data were processed

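ChIP-seq peak lists on dm6 were analysed for 2 biological replicates of 1 group, with fragments of 200 to 800 bp per the labels. Per the deposited file notes, the authors ranked peaks by IDR, jointly for both replicates and for each replicate alone, against a control. The signal is the value the authors deposited for each peak, with its scaling not stated. The score is the rescaled IDR the authors deposited, up to 1000. Neither the labels nor the file notes name the peak caller or the aligner (not given in the sources used here). No read counts were used, so the depth and its counting error are unknown.

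The heights paired to the joint peaks were traced to the replicates by interval and summit (9183 of 9211 found in replicate 1's list, 9156 in replicate 2's, and 0 the other way round). The lists were read on 6 arms, with genes from Ensembl release 115; the span of all 10 genes was the same in RefSeq. Overlap means at least 1 bp. Scripts ran under Python 3.11.15 and numpy 2.4.6 (tables in pandas 2.3.3, plots in matplotlib 3.10.9). The window counts and promoter calls were tested on simulated summits, and the motif search on short strings. Other steps were not tested in this way.

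All 10 genes and every conservative peak in their windows are named. Other genes are named where a peak lies in their body or nearest their TSS, or as up to 4 per list with the strongest peak. The 2 genes without a peak in the second list, twi, CG32816 and CG17896 were named after their values were seen. The 10 genes and the 3 lists were chosen with earlier results of these data known. Alternatives were other peak lists, windows and flanks.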

Additional observations from a re-analysis of the deposited data

How the results depend on the processing

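The number of genes with a conservative peak was 5 of 10, or 4 with the narrower window and with each peak given to its nearest protein-coding TSS, and the number with a promoter peak was 2 or 3, in all alternatives run on the 10 genes. The share of all protein-coding genes moved more. It was 28.4% in the narrower window, where 4 of 10 had a peak. With 5 of 10, it was 42.5% for peaks at or above the median signal and 75.1% in the window of 20 kb and 10 kb. The promoter share ran from 9.42% at or above the median signal (2 of 10) to 21.0% within 1000 bp (3 of 10). Whether the set lay above or below the background thus depended on the setting. The count of peaks, 13, fell to 8 among peaks at or above the median signal of the list, to 5 in a window from 2 kb upstream to the gene end, and to 5 when each peak was given only to its nearest protein-coding TSS; the optimal list and the window of 20 kb and 10 kb each gave 17. Using one replicate's own list gave 10 peaks without replicate 1 and 13 without replicate 2, each at 5 genes. E-boxes of any form were present at 23.1% of the 13 summits with 25 bp either side, 38.5% with 50 bp and 69.2% with 100 bp. A longer stretch can hold more matches, and the share over all conservative peaks was computed only for 50 bp. The rank of single peaks moved with the replicate: amos stood at 36.9% from the top in the joint list, 55.9% in replicate 1's list and 43.3% in replicate 2's. Leaving out the 4 genes of the achaete-scute complex gave 5 of the remaining 6 genes with a peak; this and counting overlapping intervals once were alternatives chosen after seeing the data. No paired analysis was possible because there was only 1 group. With 2 replicates, unknown depth and no stated scaling, a gene without a peak is one whose peaks were not called at this depth, and signals carry no error beyond the replicate values.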
